A study of Mus musculus with 16 samples.

Results

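Immediate early genes were described in whole thyroids of male wild-type C57Bl/6J mice. The 10 genes were chosen by name: Fos, Fosb, Jun, Junb, Egr1, Egr2, Egr3, Ier2, Dusp1 and Nr4a1. Each was matched to its Ensembl identifier in a table of read counts for 21640 genes, and all 10 had a row and enough counts to be tested at both time points. Mice entered the diets at 8 weeks of age and received either control chow (CD) or lard-based high-fat chow with sucrose in the drinking water (HF+SD), for 3 weeks (3W) or 6 weeks (6W). Each of the 4 groups held 4 separate mice, 1 library per mouse, without any transgene or deletion. The thyroids were snap frozen after exsanguination under deep isoflurane anesthesia, and poly(A) RNA of the whole gland was sequenced. The question was how overnutrition altered gene expression in the gland at each time.

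Immediate early genes are transcribed within minutes of a growth factor, hormone, calcium, cAMP or stress signal, without new protein synthesis, from promoters already occupied by factors such as SRF and CREB. Their mRNAs decay quickly, so that a brief stimulus gives a brief pulse of mRNA. In thyrocytes they respond to thyrotropin (TSH), which acts mainly through cAMP, and they also respond to the handling and death of an animal in many tissues. Fos, Fosb, Jun and Junb encode subunits of AP-1, a dimeric transcription factor. Egr1, Egr2 and Egr3 encode zinc finger transcription factors, and Nr4a1 encodes an orphan nuclear receptor. Dusp1 encodes a phosphatase that inactivates MAP kinases, and Ier2 encodes a small nuclear protein.

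Library totals ranged from 30025256 to 48508653 counts. The 10 thyrocyte marker genes held 27.4 to 30.7% of the counts at 3 weeks but 4.92 to 15% at 6 weeks, and in 3 of the 4 CD 6W thyroids 15 skeletal muscle genes held 3.31 to 13.9% of the counts. The library names carry 1 prefix at 3 weeks and another at 6 weeks, so that time and whatever the prefix stands for cannot be told apart, and levels at the 2 times were not tested against each other. In whole glands, fewer cells of a type and less RNA per cell cannot be told apart.

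The upstream sequences of 5 genes are shown, 4 of a set that was high and low in the same mice (Fos, Dusp1, Jun and Nr4a1) and Egr2 of another set, because cAMP and SRF act through short elements in such sequences. The 250 bases before the annotated start were read from RefSeq (GRCm38.p6), which gave an upstream window for 7 of the 10 genes. Capitals mark 3 motifs: the cAMP response element core TGACG on either strand, the full element TGACGTCA, which contains an overlapping pair of cores, and the CArG box, the binding element of SRF. The windows were chr12:85473640-85473889 on the plus strand for Fos, chr17:26508473-26508722 on the minus strand for Dusp1, chr15:101266596-101266845 on the plus strand for Nr4a1, chr10:67537619-67537868 on the plus strand for the third of 5 Egr2 starts (chosen because it holds both kinds of motif), and chr4:95052223-95052472 on the minus strand for Jun.
Fos promoter: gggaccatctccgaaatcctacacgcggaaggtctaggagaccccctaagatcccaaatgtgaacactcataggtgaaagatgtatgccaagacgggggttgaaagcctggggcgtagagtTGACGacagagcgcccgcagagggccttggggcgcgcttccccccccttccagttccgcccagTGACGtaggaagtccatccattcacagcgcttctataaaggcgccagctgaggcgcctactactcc
Dusp1 promoter: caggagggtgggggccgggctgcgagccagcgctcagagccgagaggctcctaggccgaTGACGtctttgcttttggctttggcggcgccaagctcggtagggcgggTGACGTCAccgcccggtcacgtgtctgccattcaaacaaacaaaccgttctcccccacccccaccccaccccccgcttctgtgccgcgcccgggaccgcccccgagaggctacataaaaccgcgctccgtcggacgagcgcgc
Nr4a1 promoter: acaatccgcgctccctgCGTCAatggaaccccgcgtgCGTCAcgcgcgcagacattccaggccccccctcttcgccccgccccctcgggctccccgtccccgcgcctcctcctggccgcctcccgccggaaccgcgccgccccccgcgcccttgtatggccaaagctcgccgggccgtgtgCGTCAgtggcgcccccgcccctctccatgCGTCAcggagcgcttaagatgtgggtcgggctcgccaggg
Egr2 promoter: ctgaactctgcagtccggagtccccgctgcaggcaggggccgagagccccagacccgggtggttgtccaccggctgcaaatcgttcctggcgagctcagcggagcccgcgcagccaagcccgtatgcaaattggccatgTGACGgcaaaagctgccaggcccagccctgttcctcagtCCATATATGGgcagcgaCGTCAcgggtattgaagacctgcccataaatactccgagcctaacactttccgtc
Jun promoter: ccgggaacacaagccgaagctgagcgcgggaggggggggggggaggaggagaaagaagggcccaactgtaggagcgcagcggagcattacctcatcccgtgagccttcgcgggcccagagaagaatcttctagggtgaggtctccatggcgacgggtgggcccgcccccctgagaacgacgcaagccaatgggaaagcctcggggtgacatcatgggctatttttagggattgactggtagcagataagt
At least 1 core lay in the windows of Fos, Fosb, Junb, Egr2, Dusp1 and Nr4a1, that is 6 of the 7 genes. Counted by window, 8 of the 11 windows of these genes held a core, with 5 overlapping or neighbouring windows from Egr2, while 17.8% of all 32851 RefSeq windows of this length did. Nr4a1 held 4 cores, beginning 233, 213, 69 and 40 bases before the start. Fos held 2, at 129 and 66 bases. Dusp1 alone held the full element, 143 bases before its start, which 1.55% of all windows held. The Egr2 window shown held a CArG box at 72 bases between cores at 111 and 55 bases, and 1.47% of all windows held a CArG box. None of the 3 motifs occurred in the letters of the Jun window. A match is a description of the letters and not of binding.

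Levels between genes were compared as counts per 1000000 library counts and per kilobase of exon (CPM per kb). In CD 3W thyroids Jun had the highest median (86.1 CPM per kb), followed by Junb (57.8), Ier2 (46.9), Dusp1 (39.0), Egr1 (16.3), Fos (13.5), Nr4a1 (4.71), Egr2 (0.986), Egr3 (0.361) and Fosb (0.162). Egr2, Egr3 and Fosb were thus the scarce members, with 14 to 291, 5 to 115 and 9 to 746 counts per library. The ranges of neighbours in this order overlapped in 8 of 9 steps, the exception being Nr4a1 over Egr2. In CD 6W thyroids the medians ran from 22.1 CPM per kb for Jun to 0.0937 for Egr3, and in HF+SD 6W thyroids Dusp1 (60.6) and Fos (47.6) stood above Jun (40.8), with every pair of neighbours overlapping. In HF+SD 3W thyroids Jun (83.0) was again first, then Fos (42.9), Ier2 (34.1), Dusp1 (31.6) and Junb (22.6).

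**Figure D1:**
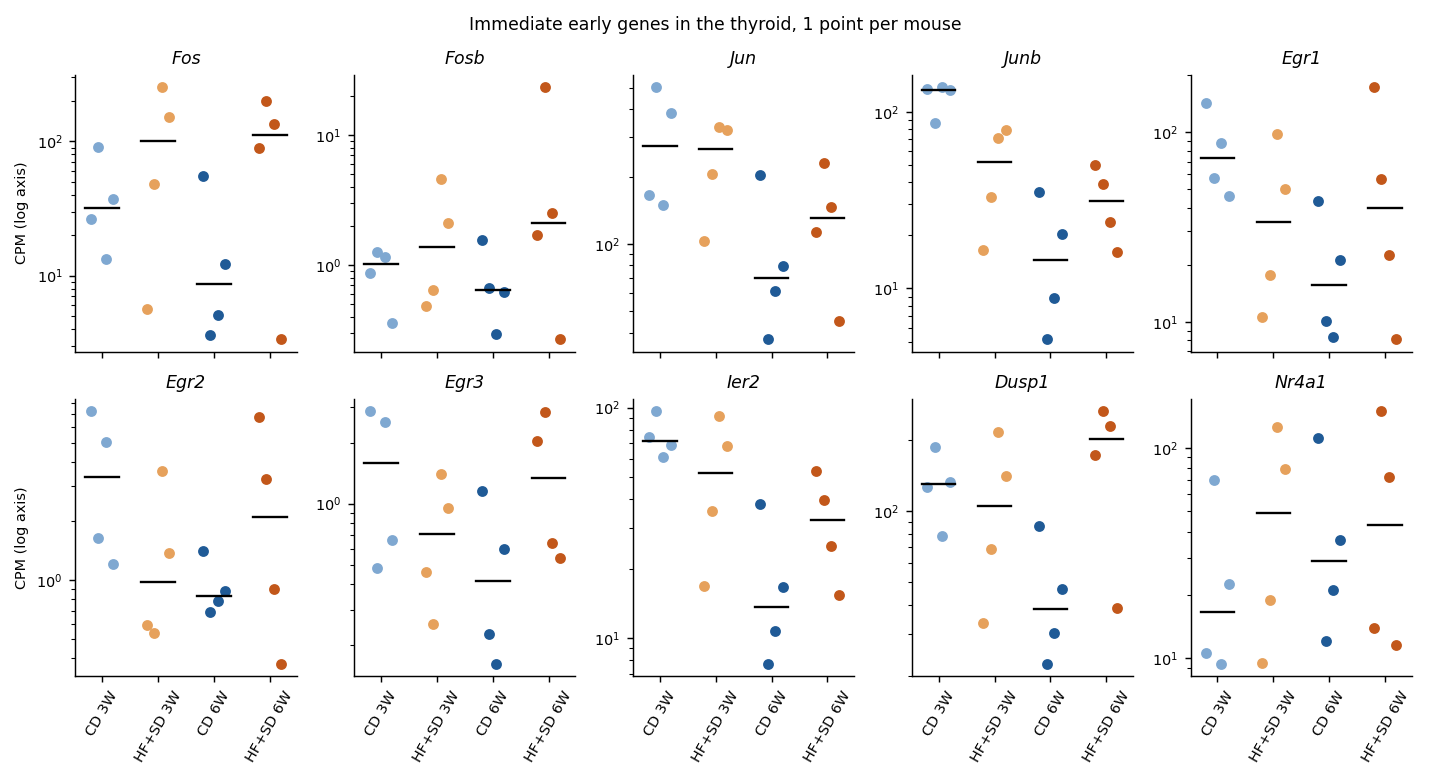
Counts per 1000000 library counts (CPM, log axis, with a separate scale for each gene) of the 10 immediate early genes, 1 point per mouse and a line at the group median. The groups overlap in each panel except for Junb at 3 weeks, where the 4 CD mice (85.9 to 138 CPM) lie above the 4 HF+SD mice (16.4 to 79.1 CPM).

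At 6 weeks the 10 genes all had a higher mean log2 level on HF+SD than on CD, with a median log2 fold change of 1.54, but only Dusp1 passed the test (edgeR quasi-likelihood test, adjusted p under 0.05 over all genes tested). One of 10 called compares with 21.5% of the 18249 genes tested at this time. At an unadjusted p under 0.05 the count was 2 of 10, Dusp1 and Fosb, against 36.2% of all genes. In none of the 10 did the 4 HF+SD mice lie apart from the 4 CD mice, whereas 23.8% of all genes had such separate groups. The median over all genes tested was -0.01 and 49.2% of them were higher on HF+SD. Scaled to thyrocyte genes, which moved the median of all genes to -0.62, 9 members were higher and 1 lower, with a median of 1.07.

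Dusp1 was present at 172, 263, 229 and 38.9 CPM in the HF+SD 6W mice M5, M18, M34 and M35, and at 86.0, 22.5, 30.4 and 46.5 CPM in the CD 6W mice M22, M43, M45 and M48. M5, M18 and M34 were above every CD mouse, while M35 was below M22 and M48. Its mean was 176 ± 98.7 CPM against 46.4 ± 28.2 CPM (SD, n = 4 each), and log2(HF+SD/CD) was 1.92 (SE 0.58, adjusted p = 0.0442, edgeR). An exact two-sided permutation test of the same 8 mice gave p = 0.0857, where 0.0286 is the smallest value that 4 against 4 can give. The call was lost in 6 of the 8 fits that left out 1 mouse (M43, M45, M48, M5, M18 or M34), with adjusted p up to 0.112, and with a skeletal muscle covariate (adjusted p = 0.233). Dusp1 overlaps Ergic1, an ER-Golgi transport gene on the opposite strand with a log2 fold change of 0.64 at 6 weeks (adjusted p = 0.0234), and the sources used here do not state whether strand was used in counting.

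Among the AP-1 genes at 6 weeks, the FOS members had the widest spread. Fos was at 89.0, 201, 135 and 3.36 CPM in M5, M18, M34 and M35 on HF+SD and at 55.1, 3.59, 5.07 and 12.3 CPM in M22, M43, M45 and M48 on CD. M5, M18 and M34 exceeded all CD mice and M35 was the lowest of the 8. The log2 fold change was 2.50 with a 95% interval of -0.05 to 5.04 (adjusted p = 0.145, edgeR). Fosb, a close relative of Fos, was at 1.69, 23.4, 2.53 and 0.269 CPM on HF+SD and at 1.55, 0.662, 0.292 and 0.625 CPM on CD, in the same order of mice. Here M18 stood far above the rest and M35 was again the lowest. The fitted log2 fold change was 3.14 (SE 1.16, adjusted p = 0.0828), and 0.93 without M18. Jun spanned 45.1 to 229 CPM on HF+SD and 37.4 to 203 CPM on CD, with a log2 fold change of 0.49 (adjusted p = 0.577) that turned to -0.20 with the muscle covariate. Junb spanned 16.1 to 50.2 CPM against 5.16 to 35.2 CPM, with a log2 fold change of 0.89 (SE 0.57, adjusted p = 0.29).

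The EGR genes had another order of mice at 6 weeks. Egr1 was at 173, 56.9, 22.6 and 8.11 CPM in M5, M18, M34 and M35 and at 43.4, 10.2, 8.28 and 21.2 CPM in M22, M43, M45 and M48. M5 was the highest of the 8 and M35 the lowest, below every CD mouse. Its log2 fold change was 1.65 (SE 0.87, adjusted p = 0.202, edgeR), and 0.50 without M5. Egr2 was at 6.72, 3.26, 0.902 and 0.376 CPM on HF+SD and at 0.685 to 1.41 CPM on CD, a log2 fold change of 1.59 (adjusted p = 0.159) that was 0.69 without M5. Egr3 was at 2.03, 2.82, 0.640 and 0.537 CPM on HF+SD and at 0.162 to 1.15 CPM on CD, a log2 fold change of 1.49 (adjusted p = 0.156) that was 1.01 without M18 and 2.18 without M22 (adjusted p = 0.0451). In all 3 genes M5 and M18 were above every CD mouse while M34 and M35 lay within or below the CD range.

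Ier2 spanned 15.3 to 52.98 CPM on HF+SD and 7.74 to 38.3 CPM on CD at 6 weeks (log2 fold change 0.86, SE 0.52, adjusted p = 0.269, edgeR). Nr4a1 was at 14.0, 149, 72.4 and 11.6 CPM in M5, M18, M34 and M35 and at 111, 12.1, 21.1 and 36.6 CPM in M22, M43, M45 and M48. Each diet group thus held mice near 12 CPM and mice several times higher. The log2 fold change of 0.45 had a 95% interval of -1.56 to 2.45 (adjusted p = 0.754), and it turned negative when scaled to thyrocyte genes (-0.03), with the muscle covariate (-0.61) and without M18 (-0.47).

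At 3 weeks the direction was mixed: Fos, Fosb and Nr4a1 had higher and the other 7 lower mean log2 levels on HF+SD, with a median log2 fold change of -0.41. No member was called by edgeR, against 14.9% of the 17238 genes tested. By DESeq2 the count was also 0, and by limma on the deposited normalized values it was 1, Junb. At an unadjusted p under 0.05 the count was 1 of 10, Junb, where 31% of all genes passed. Junb was also the 1 member whose groups did not overlap, a pattern that 23.6% of all genes had.

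Junb was at 134, 85.9, 138 and 132 CPM in the CD 3W mice M53, M54, M55 and M96 and at 16.4, 33.1, 70.8 and 79.1 CPM in the HF+SD 3W mice M7, M19y, M20y and M31. Each CD mouse lay above each HF+SD mouse, and CD varied 1.61-fold against 4.81-fold on HF+SD. Its means were 123 ± 24.5 and 49.9 ± 30.0 CPM (SD, n = 4 each), and the log2 ratio was -1.30 (SE 0.41, adjusted p = 0.0631, edgeR; exact permutation p = 0.0286, the smallest possible). It passed the threshold when libraries were scaled to 8 thyrocyte genes (-1.59, adjusted p = 0.0173) and by limma (-1.55, adjusted p = 0.0407). It did not pass in the other alternatives, where adjusted p reached 0.173. Nor did it pass in any edgeR fit that left out 1 mouse (adjusted p 0.0543 to 0.15). Prdx2, a peroxiredoxin gene that overlaps Junb on the opposite strand, had a log2 fold change of 0.13 at 3 weeks (adjusted p = 0.207).

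Egr1, Egr2 and Egr3 had log2 fold changes of -0.93, -1.31 and -1.08 at 3 weeks, with adjusted p of 0.343, 0.235 and 0.288 by edgeR. Egr1 was at 143, 57.6, 88.2 and 46.2 CPM in the CD mice M53, M54, M55 and M96 and at 10.6, 17.7, 97.8 and 50.1 CPM in the HF+SD mice M7, M19y, M20y and M31. The lowest 2 values belonged to HF+SD mice, but M20y was above 3 of the 4 CD mice. Egr2 was at 7.20, 1.64, 5.07 and 1.21 CPM on CD and at 0.592, 0.538, 3.59 and 1.37 CPM on HF+SD. In Egr2 and in Egr3 (0.480 to 2.85 CPM on CD, 0.256 to 1.40 CPM on HF+SD) the CD mice M53 and M55 were several times higher than M54 and M96.

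Fos had the opposite sign at 3 weeks. It was at 26.6, 91.4, 13.2 and 36.9 CPM in M53, M54, M55 and M96 on CD and at 5.595, 48.4, 254 and 153 CPM in M7, M19y, M20y and M31 on HF+SD. The HF+SD group held both the lowest and the highest mouse, a 45.4-fold range, and the log2 fold change was 1.46 (SE 0.91, adjusted p = 0.309, edgeR; exact permutation p = 0.6). Nr4a1 was at 10.6, 70.1, 9.44 and 22.4 CPM on CD and at 9.47, 18.8, 126 and 79.7 CPM on HF+SD, in the same order of mice. M20y and M31 were above every CD mouse, and M7 and M19y lay within the CD range (log2 fold change 1.06, adjusted p = 0.427). Fosb (0.355 to 1.27 CPM on CD, 0.484 to 4.60 CPM on HF+SD) gave a log2 ratio of 1.11 (adjusted p = 0.297).

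Jun, Dusp1 and Ier2 differed least between diets at 3 weeks. Dusp1 was at 125, 187, 78.2 and 133 CPM in M53, M54, M55 and M96 and at 33.5, 69.0, 215 and 140 CPM in M7, M19y, M20y and M31. The HF+SD mice lay on both sides of the CD mice, and the log2 fold change was -0.20 with a 95% interval of -1.27 to 0.88 (adjusted p = 0.815, edgeR). For Jun the values spanned 150 to 503 CPM on CD and 103 to 334 CPM on HF+SD (log2 fold change -0.31, adjusted p = 0.671). For Ier2 they spanned 61.1 to 96.2 CPM and 16.8 to 92.2 CPM (log2 fold change -0.50, adjusted p = 0.457). The signs of Jun and Dusp1 turned when M54 was left out (0.05 and 0.02), and that of Dusp1 also without M7 (0.11).

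**Figure D2:**
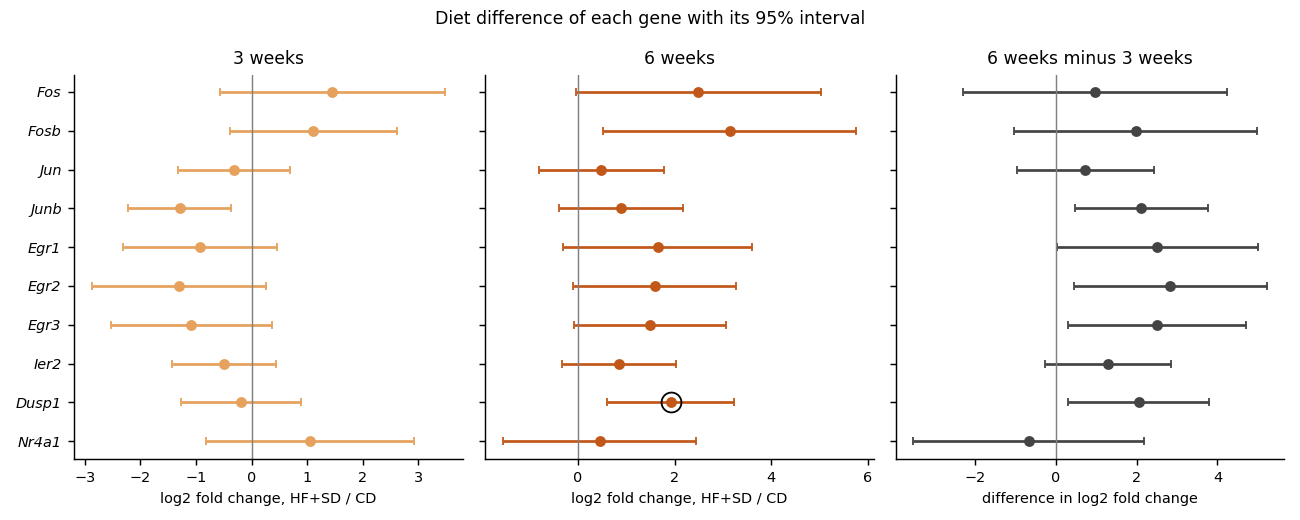
Log2 fold change of HF+SD over CD for each gene at 3 weeks and 6 weeks, and the difference of the 2, as points with 95% intervals (edgeR). The ring marks Dusp1 at 6 weeks (1.92), the only value with an adjusted p under 0.05, and at 6 weeks the other intervals reach below 0 except that of Fosb.

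The difference between the diet effects, 6 weeks minus 3 weeks, was tested over all 16 libraries. No member was called by edgeR, where 0.0792% of 18929 genes were. DESeq2 and limma also called 0 of the 10. At an unadjusted p under 0.05 the count was 5 of 10, against 22.3% of all genes: Junb, Egr1, Egr2, Egr3 and Dusp1. The differences of these 5 were 2.12 (SE 0.77), 2.51 (SE 1.17), 2.83 (SE 1.13), 2.51 (SE 1.04) and 2.04 (SE 0.82) on the log2 scale, with adjusted p between 0.124 and 0.218. That of Junb passed when the CD 6W mouse M22 was left out (2.72, adjusted p = 0.0229), a fit in which 2715 genes passed against 15 with all mice. Nr4a1 was the 1 member with a negative difference (-0.68, 95% interval -3.54 to 2.17).

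The spread within groups was large for every member. The within-group SD of log2 CPM had a median of 1.14 over the 10 genes at 3 weeks, against 0.217 over all genes tested, and of 1.21 against 0.311 at 6 weeks. Each member had a larger SD than 97.1 to 99.9% of the tested genes at 3 weeks and than 94.8 to 99.0% at 6 weeks. Fos was the most variable member at both times (SD 1.91 and 2.27), and Junb at 3 weeks (0.781) and Ier2 at 6 weeks (0.895) were the least. Between the lowest and the highest mouse of a group, levels differed 1.57- to 7.42-fold in CD 3W, 3.24- to 45.4-fold in HF+SD 3W, 2.05- to 15.4-fold in CD 6W and 3.11- to 87.1-fold in HF+SD 6W.

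The members were high and low in the same mice. M22 was the highest CD 6W mouse for all 10 genes, and M35 was the lowest HF+SD 6W mouse for all 10. In HF+SD 3W, M20y was the highest for 9 genes, the exception being Junb (M31), and M7 was the lowest for 8, the exceptions being Egr2 and Egr3 (M19y). Over the 16 libraries, deviations from the group means correlated positively in 45 of 45 pairs of members (Pearson r of log2 CPM, median 0.729), with 24 pairs above 0.7. These are descriptions, and 2 genes measured in 1 library share its depth and composition. The r of a member with the mean of the other members ranged from 0.672 (Egr3) to 0.931 (Ier2). By this measure, the r of a gene with the mean of the members had a median of 0.0123 over 17014 genes. Pairs of genes outside the members were not correlated.

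**Figure D3:**
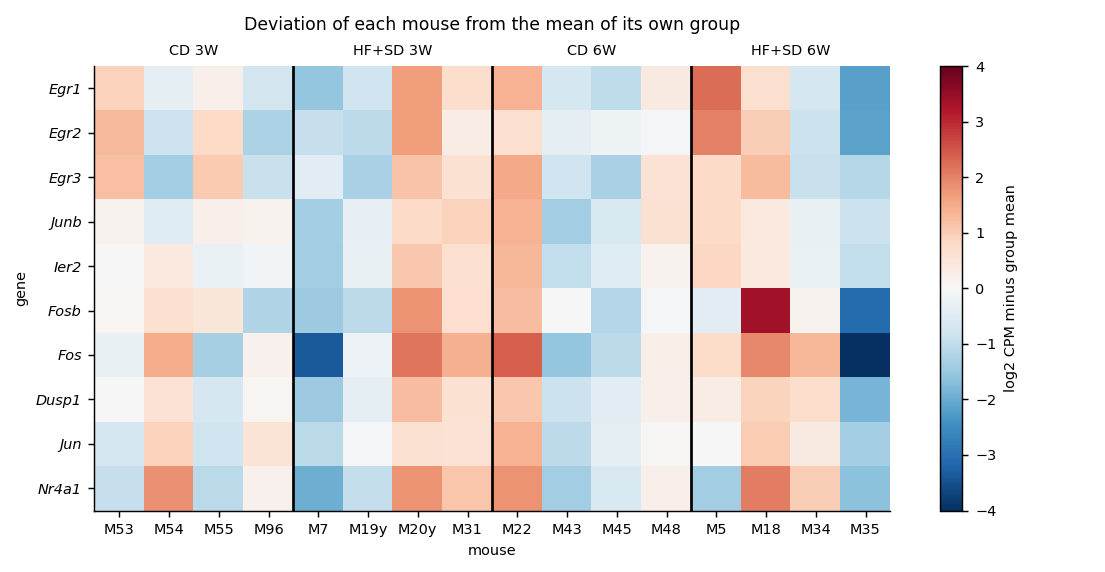
Log2 CPM minus the group mean for each gene (rows) and mouse (columns, with groups separated by lines), red above and blue below the mean. M22 is red and M35 blue in all 10 rows. In M5, M34, M53, M54, M55 and M96 the EGR rows at the top and the Nr4a1 row at the bottom have opposite colours.

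Within this common pattern 2 sets of genes could be distinguished over the 16 libraries together. Fos and Dusp1 were the closest pair (r = 0.99), and Fos with Jun (0.925), Jun with Nr4a1 (0.916) and Jun with Dusp1 (0.909) followed the same mice. Egr1 with Egr2 (0.922) and Egr2 with Egr3 (0.853) formed another set, and Junb was closest to Ier2 (0.912). The lowest r was between Egr2 and Nr4a1 (0.233), and at 3 weeks Jun had an r of -0.301 with Egr3 and -0.122 with Egr2. At 6 weeks the r of Jun was 0.787 with Egr3 and 0.588 with Egr2. Egr3 then had an r of 0.752 with Fos and 0.732 with Dusp1. Its r at 6 weeks was 0.769 with Egr2, 0.864 with Egr1, 0.884 with Junb and 0.899 with Ier2. Egr3 was thus set apart from Fos, Jun and Dusp1 at 3 weeks but not at 6 weeks. Among the CD 3W mice, M53 was the highest for Egr1, Egr2 and Egr3, and M54 for Fos, Fosb, Jun, Ier2, Dusp1 and Nr4a1. M55 was the lowest for Fos, Jun, Ier2, Dusp1 and Nr4a1 but second for Egr1, Egr2 and Egr3, and M96 was the lowest for Fosb, Egr1 and Egr2 but second for Fos, Jun, Dusp1 and Nr4a1. At 6 weeks on HF+SD, M5 was the highest for Junb, Egr1, Egr2 and Ier2, and M18 for Fos, Fosb, Jun, Egr3, Dusp1 and Nr4a1.

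Outside the 10 genes, those whose deviations were most like the members' mean over the 16 libraries were Btg2, an antiproliferative early gene (r = 0.91), Zfp36, which encodes an mRNA decay factor (0.891), Atf3, a stress-responsive AP-1 partner (0.857), Gem, which encodes a small GTPase (0.851), Gm42929 (0.846), Ppp1r15a, which encodes a subunit directing eIF2α dephosphorylation (0.837), Dusp2, another MAP kinase phosphatase (0.835), and Klf6, Jrk and Gm37689 (0.827 at the least). Atf3 was at 34.8, 2.51, 3.64 and 2.99 CPM in M22, M43, M45 and M48 and at 33.7, 172, 15.7 and 1.83 CPM in M5, M18, M34 and M35. As in Fos, M22 led the CD mice, M18 led the HF+SD mice and M35 was the lowest of the 8. Dusp2 was at 513 CPM in M22 but at 19.8 to 36.4 CPM in the other CD 6W mice. Neither Atf3 (log2 fold change 2.35, adjusted p = 0.22, edgeR) nor Btg2 (2.09, adjusted p = 0.0643) nor Dusp2 (1.34, adjusted p = 0.387) was called at 6 weeks.

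Skeletal muscle reads also set M22 apart from the other CD 6W mice. The 15 muscle genes summed to 728 CPM in M22, the mouse highest for all 10 early genes, and to 31940, 194200 and 113400 CPM in M43, M45 and M48. In HF+SD 6W they summed to 1023 to 3669 CPM, and at 3 weeks to 4.26 to 60.7 CPM. All 15 muscle genes were lower on HF+SD at 6 weeks, and all were called. None was at 0 in all 4 libraries of a group. With a muscle score as covariate the members' median log2 fold change at 6 weeks was 1.12, with 8 higher, 2 lower and 0 called. Among CD 6W mice only M22 had as few muscle reads as the HF+SD mice. The covariate thus separated muscle from diet at 6 weeks mainly through M22. Calls lost or signs turned with it, here and elsewhere, do not tell muscle and diet apart. At 3 weeks muscle reads were few in every mouse, so the covariate could not adjust for muscle tissue there. M35, the lowest HF+SD 6W mouse for every member, had 1869 CPM of muscle genes.

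**Figure D4:**
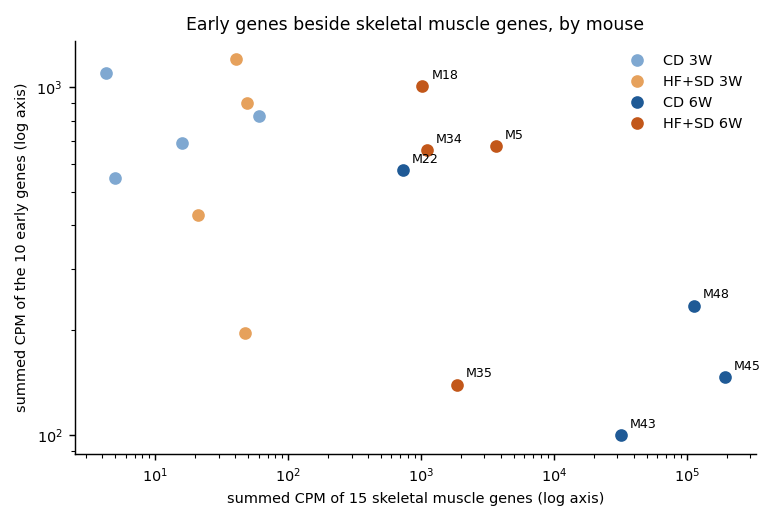
Summed CPM of the 10 early genes (vertical, log axis) against the summed CPM of 15 skeletal muscle genes (horizontal, log axis), 1 point per mouse, with the 6-week mice named. M22 (728 CPM of muscle genes) lies with 3 of the HF+SD 6W mice, and M43, M45 and M48 lie to the lower right, while M35 is low on the vertical axis without high muscle counts.

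Other measures also differed between the diets or set single mice apart. The 10 endothelial genes summed to 1291 to 1506 CPM on HF+SD and 355 to 462 CPM on CD at 6 weeks, and to 1130 to 1695 CPM against 580 to 773 CPM at 3 weeks, with 9 of 10 called higher at each time. The 8 macrophage genes summed to 255 to 330 CPM against 138 to 178 CPM at 6 weeks (7 called higher) and to 133 to 194 CPM against 131 to 160 CPM at 3 weeks (0 called). Mitochondrially encoded transcripts held 5.17% of the counts in M22 and 8.10 to 11.2% in the other CD 6W mice, and in HF+SD 6W 8.88% in M35 and 6.54 to 7.54% in the others. In HF+SD 3W, the lymphocyte genes summed to 39.3 CPM in M7, the mouse lowest for 8 members, and to 2.47 to 3.26 CPM in the other 3. Adipocyte genes summed to 522 to 957 CPM on HF+SD against 1394 to 2438 CPM on CD at 6 weeks (7 of 8 called lower) and to 356 to 772 CPM against 1214 to 1362 CPM at 3 weeks (7 of 9). Mural genes summed to 1104 to 1199 CPM against 442 to 552 CPM at 6 weeks (6 of 8 called higher) and to 462 to 732 CPM against 370 to 436 CPM at 3 weeks (3 of 8). Parathyroid genes summed to 16930 CPM in M22 and to 2630 to 5171 CPM in the other CD 6W mice (585 to 2689 CPM on HF+SD), with 0 of 4 called at either time. No gene of these lists was at 0 in all 4 libraries of a group. Their part in the early gene values was not tested.

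The partners with which the AP-1 members dimerize or compete were followed in a list of 12 genes, 11 of them tested. At 6 weeks 5 were called higher on HF+SD and 0 lower, and at 3 weeks none was called, against 12% of all genes called higher and 9.55% lower at 6 weeks and 9.07 and 5.78% at 3 weeks. Jund, a JUN family member known for more constant expression, was at 131, 125, 107 and 78.8 CPM in M5, M18, M34 and M35 and at 60.8, 39.4, 37.5 and 49.2 CPM in M22, M43, M45 and M48. The groups did not overlap, in contrast to Fos, Jun and Junb, and Jund rose by 1.24 on the log2 scale (SE 0.21, adjusted p = 0.00439, edgeR). Within its groups Jund still varied with the members at 6 weeks, where its r with their mean deviation was 0.97 (0.488 at 3 weeks). Batf2 (1.98, adjusted p = 0.00544), Jdp2, a repressing partner (0.90, adjusted p = 0.0347), Fosl2 (0.55, adjusted p = 0.0349) and Mafk (0.63, adjusted p = 0.0457) rose as well. When scaled to thyrocyte genes, which lowered the median of all genes by 0.61, Fosl2 turned to -0.04 and the list had 2 called in each direction. With the muscle covariate Jdp2 (1.04, adjusted p = 0.0682), Fosl2 (0.41, adjusted p = 0.195) and Mafk (0.53, adjusted p = 0.199) were not called, and Mafk was also lost with DESeq2 size factors (adjusted p = 0.0546). The list's median log2 fold change was 0.63 at 6 weeks and -0.36 at 3 weeks.

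Among other early transcription factors, 2 of 15 tested were called higher at 6 weeks (Ier5, 1.28, adjusted p = 0.0022; Ier5l, 1.00, adjusted p = 0.0256, edgeR) and 0 lower, with a median log2 fold change of 0.49. At 3 weeks 2 of 16 rose and 2 fell: Ier5 by 0.52 and Nfil3, a circadian repressor, by 1.34, against Klf4 (-0.77) and Myc (-1.15). Over all genes 12% were called higher and 9.55% lower at 6 weeks, and 9.07 and 5.78% at 3 weeks. The counts of the lists that follow are to be read against these shares too. Ier5 was at 27.9 to 32.8 CPM on HF+SD and 8.24 to 15.2 CPM on CD at 6 weeks, without overlap. Of 22 other early genes tested at 3 weeks, 1 rose and 6 fell, and the median was -0.51. Phlda1, a pleckstrin homology-like domain gene, was at 27.5, 49.6, 39.2 and 37.7 CPM in the HF+SD mice M7, M19y, M20y and M31 and at 84.0 to 132 CPM on CD (-1.58, adjusted p = 8.39e-04). Sgk1, a kinase induced by serum and glucocorticoids, rose at both times (0.85 and 1.15). Nfkbia, the NF-κB inhibitor, fell at both (-0.94 and -0.79), as did Pim1, a survival kinase (-0.89 and -1.03). At 6 weeks 4 of 23 rose and 2 fell, Rhob (0.85) and Gadd45a (1.61) among the former, with a median of 0.43. Thyrocyte scaling turned the 6-week medians of these 2 lists to -0.16 and -0.11 and ended the 6-week calls of Sgk1 (0.49, adjusted p = 0.137), Rhob (adjusted p = 0.468), Ier5 (adjusted p = 0.0637) and Ier5l (adjusted p = 0.328) and the 3-week call of Ier5 (adjusted p = 0.13). With the muscle covariate the 6-week calls of Nfkbia (adjusted p = 0.134), Pim1 (adjusted p = 0.105), Gadd45a (adjusted p = 0.0588) and Ier5l (adjusted p = 0.069) and the 3-week call of Myc (adjusted p = 0.216) were lost. Without M22, 5 of 16 early transcription factors rose at 6 weeks, and 10 of 23 other early genes rose and 4 fell. Calls over all genes also increased in that fit (last paragraph), so a gain in calls was not particular to these lists.

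Feedback regulators of MAP kinase signalling, relatives of Dusp1 in function, gave 1 called higher and 3 lower of 14 at 3 weeks and 3 higher and 1 lower of 14 at 6 weeks. Dusp4, a nuclear MAP kinase phosphatase, fell at 3 weeks from 6.17 to 11.1 CPM on CD to 2.20 to 2.99 CPM on HF+SD (log2 fold change -1.63, adjusted p = 0.00117, edgeR). Spry1 (-0.62) and Spry2 (-0.39) fell and Spred3 rose (0.68) at the same time. At 6 weeks Spry4 rose by 1.58 (adjusted p = 0.00244), with Spred3 (1.05) and Dusp6 (0.99). Dusp10 fell by 3.93 on the log2 scale at 6 weeks (adjusted p = 0.00942, edgeR). Its CD values of 3.16, 13.4, 66.3 and 32.8 CPM in M22, M43, M45 and M48 followed the order of muscle reads in these mice. With the muscle covariate, which rested mainly on M22, Dusp10 was still called (-1.37, adjusted p = 0.017). The list's median was -0.32 at 3 weeks and 0.39 at 6 weeks (-0.23 with thyrocyte scaling). Without M22, a fit that called more genes over all, the calls at 6 weeks were 5 higher and 1 lower. Dusp6 at 6 weeks and Spred3 at 3 weeks were called neither with thyrocyte scaling (adjusted p = 0.209 and 0.0833) nor with the muscle covariate (0.181 and 0.174), and Spry2 was lost with the latter (0.0512). In the list of 25 kinases and factors upstream of the members, 1 was called higher and 2 lower at 3 weeks, and 1 was called higher at 6 weeks. Elk3, an SRF cofactor, rose at both times (0.73 and 1.10), and Creb1 (-0.39) and Mapk3 (-0.30) fell at 3 weeks. The median of these 25 was -0.10 at 3 weeks, and with thyrocyte scaling 12 were called lower at 6 weeks and Elk3 was not called (0.47, adjusted p = 0.0913). That scaling moved the median of all genes at 6 weeks to -0.62 and raised the calls over all genes (last paragraph). The 12 therefore cannot be read as a fall of these genes in particular. Creb1 was lost with the muscle covariate (adjusted p = 0.247).

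Nab1 and Nab2 encode corepressors of the EGR proteins, and Nab2 is itself an EGR target. Nab2 was at 120, 33.3, 184 and 30.0 CPM in the CD 3W mice M53, M54, M55 and M96 and at 22, 26.5, 24.8 and 27.0 CPM in the HF+SD 3W mice M7, M19y, M20y and M31. As in Egr2 and Egr3, M53 and M55 were high and M54 and M96 low. Nab2 fell by 1.88 on the log2 scale at 3 weeks (SE 0.52, adjusted p = 0.0396, edgeR) and rose by 1.26 at 6 weeks (adjusted p = 0.0147), when Nab1 rose by 0.54 (adjusted p = 0.0445). With thyrocyte scaling neither was called at 6 weeks (Nab2 0.73, adjusted p = 0.0681) and Nab1 turned to -0.06. With the muscle covariate neither was called, at 1.09 (adjusted p = 0.0626) for Nab2 and 0.46 (adjusted p = 0.193) for Nab1 at 6 weeks and at -1.14 (adjusted p = 0.314) for Nab2 at 3 weeks. At 3 weeks the muscle genes summed to at most 60.7 CPM, so the last of these does not show a dependence on muscle.

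Heat shock genes, which encode chaperones, gave 4 of 9 lower at 3 weeks and 1 in each direction at 6 weeks. Hspa1b was at 51.4, 56.1, 105 and 52.0 CPM in M53, M54, M55 and M96 and at 24.6 to 30.9 CPM in the HF+SD 3W mice. It fell by 1.24 on the log2 scale (adjusted p = 0.00602, edgeR), and Hspa1a (-0.81), Dnajb1 (-0.47) and Hspb1 (-0.86) fell with separate groups. At 6 weeks Hsp90aa1 rose by 0.80 and Hspe1 fell by 0.61. With the muscle covariate Hspa1a (adjusted p = 0.0621), Dnajb1 (0.169) and Hspe1 (0.175) were not called, nor was Hsp90aa1 with thyrocyte scaling (0.614). The 9 genes had a median r of -0.123 with the members' mean deviation, and 3 of the 9 were above 0.

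**Figure D5:**
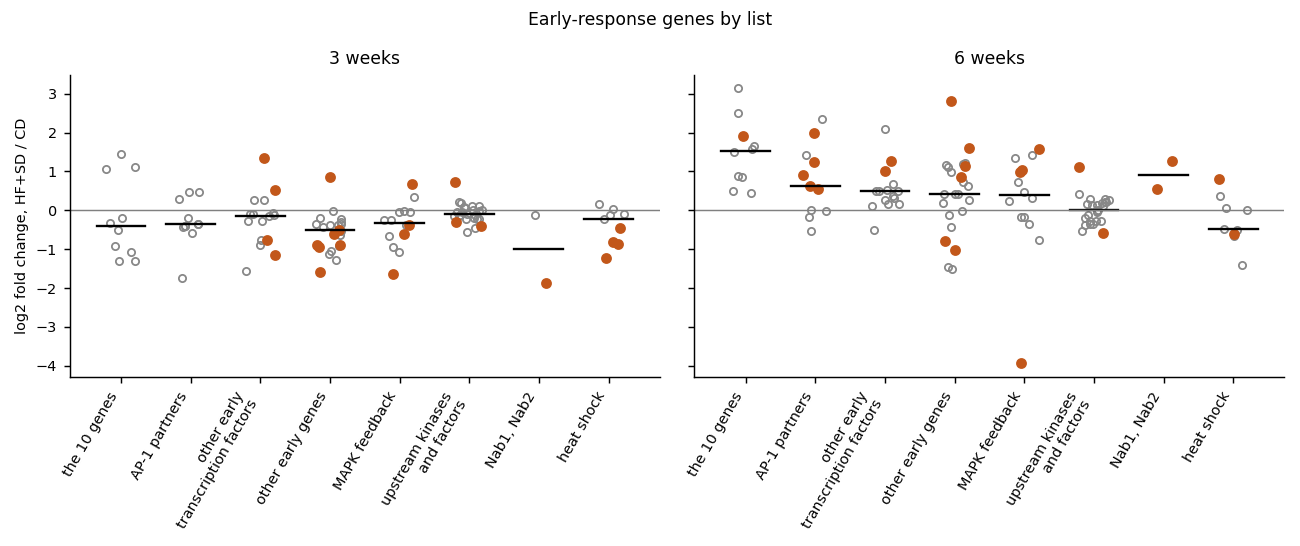
Log2 fold change of HF+SD over CD at 3 weeks and 6 weeks for the 10 genes and 7 lists of related genes, 1 point per tested gene, filled where the adjusted p was under 0.05 (edgeR), with a line at each list's median. The median of the 10 genes is -0.41 at 3 weeks and 1.54 at 6 weeks with 1 filled point, while the AP-1 partners have 5 filled points at 6 weeks.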

How the data were processed

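Poly(A) RNA of 16 thyroids was sequenced. Per the labels, the authors' processing notes name Trim Galore 0.6.7, STAR, DESeq2 1.36.0 and R 4.1.0 with build mm39. The annotation and the use of strand in counting were not given in the sources used here. Each test used the deposited raw counts per gene, and the deposited size-factor normalized signal entered 1 alternative. Symbols matched 20841 of 21640 identifiers.

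HF+SD was compared with CD within each time point by edgeR 4.0.16 in R 4.3.3 (TMM, filterByExpr, quasi-likelihood test, Benjamini-Hochberg over all tested genes, threshold 0.05). CPM is counts per 1000000 of TMM-scaled library size. Alternatives used DESeq2 1.42.0, limma 3.58.1 (log2 of the deposited signal plus 1), other scalings, filters and covariates, and leaving out each mouse. Depth ranged from 30025256 to 48508653 counts. The study gives 1 CD 6W mouse fewer than the 4 libraries labelled so, without naming it; all 4 were used, and fits without each are given. Libraries of a group differed by more than sampling noise (chi-square per gene 15.1 to 871). The fits were tested on simulated counts.

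The 10 members and the gene lists were chosen with earlier results of these data known. Named genes were the members, up to 4 called genes of each list and time by lowest adjusted p (every called gene in lists of 5 or fewer), and the 10 genes most like the members. A result of the upstream list at 6 weeks is not reported here. Mafk, Spred3, Pim1, Ergic1 and Prdx2 and the values by mouse of Atf3, Btg2 and Dusp2 were added after their values were seen. Exon lengths and overlaps came from GENCODE M21 (GRCm38), another build than that of the counts.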

Additional observations from a re-analysis of the deposited data

Results flagged for a closer look

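Junb in the CD 3W group was the only case of 40 (10 genes in 4 groups) in which 1 mouse stood far from the others of its group. M54, at 85.9 CPM, was the lowest. On the log2 CPM scale its gap to the next mouse was 0.911 of the group's range, above Dixon's 95% critical value for 4 samples. The other 3 mice were at 132, 134 and 138 CPM. Such a rule marks about 1 in 20 groups by chance. M54 was the highest CD 3W mouse for 6 of the other members.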

How the results depend on the processing

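The count of members called at 6 weeks was 1 with all mice. It was 2 by DESeq2 and in 1 fit of all 16 libraries (Fosb added), and 0 by limma, with the muscle covariate and without the CD mice M45 and M48, a choice made after seeing the data. Leaving out 1 mouse gave 0 to 4, with 4 (Fos, Egr3, Ier2 and Dusp1) without M22, 2 (Fosb and Dusp1) without M35 and 0 without any of the other 6. At 3 weeks the count was 1 instead of 0 by limma and with thyrocyte scaling (Junb). For the difference between time points, leaving out 1 mouse gave 0 to 1 (Junb, without M22). The cause was not tested.

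Signs turned at 6 weeks for Nr4a1 with thyrocyte scaling (-0.0279) and the muscle covariate (-0.61) and for Jun with the muscle covariate (-0.20). With that covariate the differences between time points of Fos and Jun were -0.40 and -0.051. Leaving out 1 mouse, Nr4a1 at 6 weeks ranged from -0.47 to 1.41, Jun at 3 weeks from -0.54 to 0.0481, Dusp1 at 3 weeks from -0.69 to 0.11, and the difference between time points from -1.66 to 0.29 for Nr4a1 and from -0.23 to 2.84 for Fosb. Thyrocyte scaling shifted the all-gene median (-0.61 at 6 weeks, -0.23 at 3 weeks).

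Genes called at 6 weeks numbered 3927 with all mice, 5273 by DESeq2, 6182 in 1 fit of all libraries, 8835 with thyrocyte scaling, 2081 with the muscle covariate, 1957 without M45 and M48, and 1934 (without M34) to 5743 (without M22) leaving out 1 mouse. At 3 weeks they numbered 2560, with 803 above an absolute log2 fold change of 1, 1420 in 1 fit of all libraries, 1625 with the muscle covariate and 1448 to 3393 leaving out 1 mouse. For the difference between time points they numbered 15, with 1796 by DESeq2, 101 by limma and 1 to 2715 leaving out 1 mouse. No paired analysis was possible because the groups share no replicate numbers. With 4 mice a group and the members' spread, intervals of the log2 fold changes at 6 weeks were several units wide, and a p above the threshold does not show that levels were alike.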
